A study of Mus musculus with 11 samples.

Results

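The Slc25 family of mitochondrial solute carriers was followed in RNA-seq of im-scWAT cells, a line of preadipocytes that large T antigen had immortalized after their isolation from mouse inguinal fat. Members were the coding genes named Slc25a and a number, read on the sense strand and from the transcript that the files mark as representative, with Slc25a1 and Slc25a20 left out. The rule uses names only and found 42 of 21452 coding gene symbols. The cells were differentiated to beige adipocytes with rosiglitazone (ROS), a ligand of the nuclear receptor PPARγ, at 0.5 μM, or to white adipocytes in the same hormone mix without ROS, and 1 sample of each was taken at day 0, day 4 and day 8. A further 5 samples, all at day 8 with ROS, came from preadipocytes in which a retroviral shRNA (sh-mJmjd1a) targeted the mouse histone demethylase JMJD1A and a second retrovirus carried human hJMJD1A, as wild type (WT A and WT B), S265A, which cannot be phosphorylated at that serine, S265D, or S265D-H1120Y, which also lacks an iron-binding residue of the demethylase. ROS was first given with the induction medium, so the samples called D0 ROS+ and D0 ROS- are both untreated preadipocytes. The labels and the study's methods describe the withdrawal of ROS before day 8 differently, and ROS+ is used here only as the label. All 11 samples come from 1 immortalized line, and only WT has 2 samples. Nothing in the labels says that samples came from separate cultures, so p-values measure the spread between these samples, which may be technical. In the time course that spread also holds any difference between the ROS effects at day 4 and day 8.

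Slc25 carriers are small proteins, most of them in the inner mitochondrial membrane, that exchange nucleotides, phosphate, cofactors, amino acids and organic acids between the cytosol and the matrix. The set of carriers in a cell limits which fuels its mitochondria can burn and which products can leave them. Fat cells gain many mitochondria as they differentiate, and beige adipocytes use theirs to burn fuel for heat.

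The files give FPKM, the mapped bases per kb of exon and per Mb mapped, and the samples rested on 3.10 to 5.29 Gb of mapped bases. Adipoq, which encodes an adipocyte hormone, rose from 0.0519 and 0.121 FPKM at day 0 to between 397 and 1291 in the day 8 samples. Of 5 macrophage and leukocyte genes, Ptprc and Emr1 were listed at 0 in every sample. Csf1r and Lyz2 reached at most 0.332 and 0.266 FPKM. Cd68 was present throughout, at 2.43 and 2.18 FPKM at day 0 and 4.30 with and 2.45 without ROS at day 8. Among transduced samples Cd68 was lowest for WT A (5.00 FPKM) and highest for S265D-H1120Y (21.7), with WT B at 16.6. The source of the Cd68 signal was not tested. Kdm3a, the mouse gene for JMJD1A, was at 13.0 FPKM in S265A, 17.9 in WT B, 20.4 in WT A, 23.0 in S265D and 28.5 in S265D-H1120Y, against 21.1 in the untransduced D8 ROS+ sample, so the files show no uniform loss of this transcript, and whether reads of human hJMJD1A were counted there was not tested. The study itself reports, from immunoblot and qPCR, that the shRNA depleted the mouse JMJD1A of these cells. The D0 samples were 2-fold or more apart in 3.52% of the coding genes at an FPKM of at least 0.1. Between WT A and WT B, 15.1% of the coding genes were at least 2-fold higher in WT B and 10.6% were at most 0.5 times WT A. In such bulk samples, fewer cells of a type and less RNA per cell cannot be told apart.

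The family was dominated by a few carriers. Slc25a3, the phosphate carrier, and Slc25a4 and Slc25a5, which exchange ADP for ATP, together held between 48.2% and 63.5% of the summed FPKM of the 42 members. With Slc25a39, a glutathione carrier, they were the 4 members at 100 FPKM or more in every sample, and 29 members were at 1 FPKM or more in every sample. At the other end, Slc25a31, the ADP/ATP carrier of the testis, and Slc25a41, a short ATP-Mg/phosphate carrier, stayed below 0.1 FPKM in every sample, and Slc25a2, Slc25a18, Slc25a21 and Slc25a43 stayed below 1. The summed FPKM was 1200.3 and 1233 at day 0, 1818 and 2085 at day 4, and 1921 without and 2478 with ROS at day 8. That is 1.58 times the day 0 mean at day 8 without ROS and 2.04 times with ROS, and 1.97 and 2.27 times when Slc25a3, Slc25a4 and Slc25a5 are left out.

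**Figure D1:**
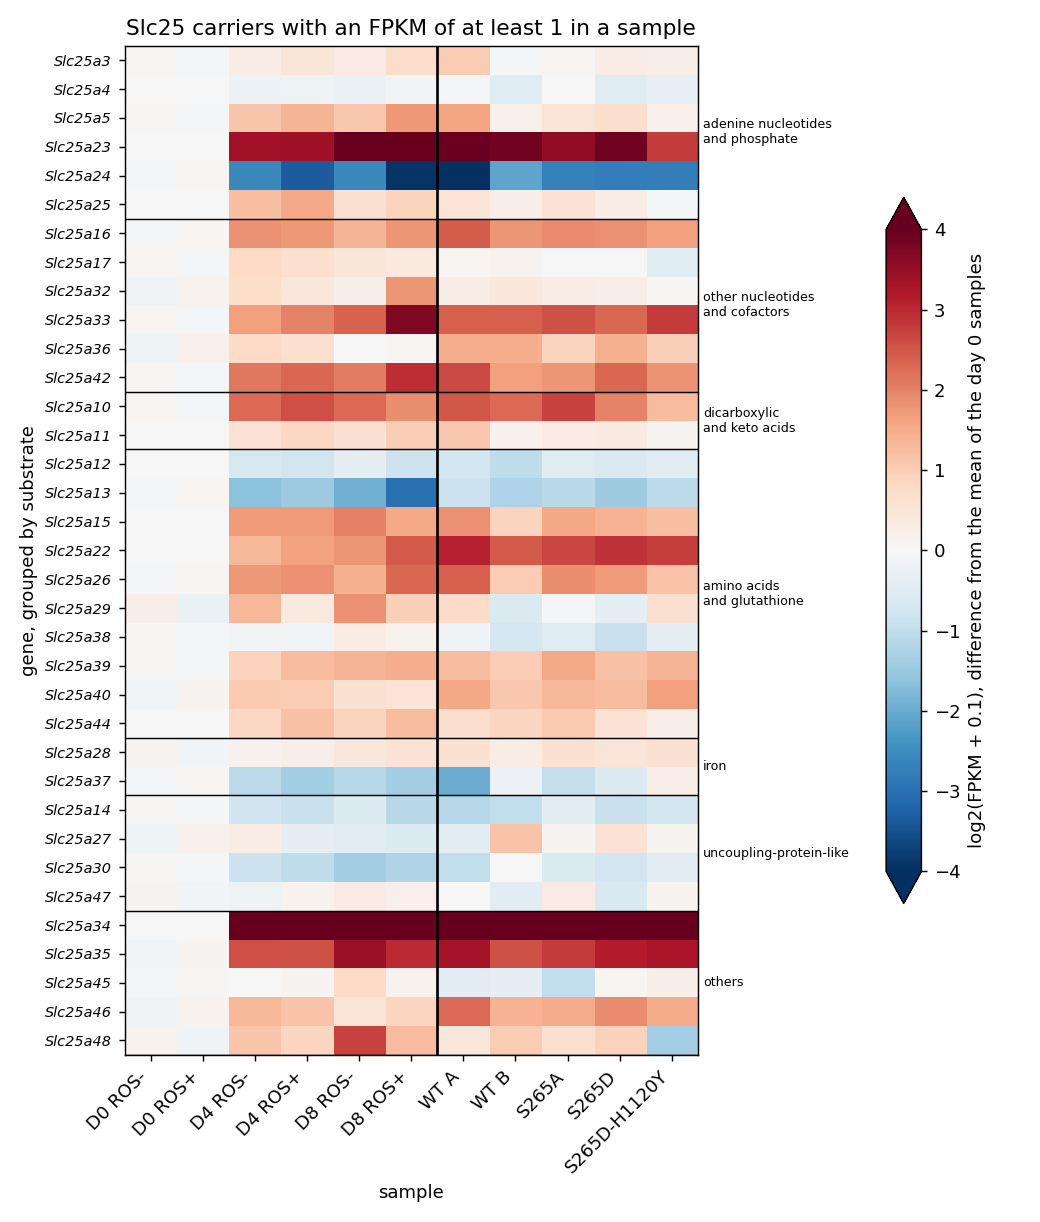
Heat map of 35 of the members that reached 1 FPKM in a sample, in rows grouped by substrate, with the 11 samples in columns. Colour is log2(FPKM + 0.1) minus the mean of the D0 samples, capped at 4 in each direction. Slc25a34 and Slc25a23 are far above day 0 in every later sample, and Slc25a24 is far below.

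The first question was which carriers change as preadipocytes become adipocytes. Relative to day 0, 24 members were higher and 7 were lower at day 8 among the 39 tested (Slc25a21, Slc25a31 and Slc25a41 were under 0.1 FPKM in these 6 samples). That is 61.5% and 17.9% of the members, against 28.1% and 30.6% of the 14190 coding genes tested. At day 4, 22 members were higher and 7 lower, against 25.3% and 26.0% of the coding genes. The test was limma on log2(FPKM + 0.1), with terms for day and for ROS after day 0 and Benjamini-Hochberg adjustment over all coding genes at 0.05, and changes below are log2 changes in that fit with their standard error (SE). The 7 that were lower at day 8 were also lower at day 4, and 21 of the 24 were also higher at day 4. Both comparisons use the D0 samples and the same fit, so this overlap is partly built in and is no separate check. The overlap over all coding genes was not counted. The median log2 change at day 8 was 0.77 for the members and -0.059 for all coding genes. Of the 24 and 7, 14 and 3 kept their call under all 16 settings tried. The higher members that did not were Slc25a3, Slc25a5, Slc25a11, Slc25a17, Slc25a18, Slc25a28, Slc25a29, Slc25a40, Slc25a46 and Slc25a48. The lower ones that did not were Slc25a12, Slc25a14, Slc25a37 and Slc25a43. Without either D0 sample the number of lower members dropped from 7 to 4 at day 8. At day 4 it dropped from 7 to 2, and was 4 without D4 ROS-.

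Among the 6 carriers of adenine nucleotides and phosphate that were tested, 4 were higher and 1 was lower at day 8. Over all coding genes, 28.1% were higher and 30.6% lower. Members of the same subfamily went opposite ways. Slc25a23, Slc25a24 and Slc25a25 carry ATP-Mg in exchange for phosphate and are opened by calcium. Slc25a23 was at 0.506 and 0.509 FPKM in the D0 samples, at 6.23 with and 6.10 without ROS at day 4, and at 13.8 and 13.9 at day 8, a log2 change of 4.52 (SE 0.15, limma adjusted p = 1.34e-05). Slc25a24 was at 47.5 and 43.3 FPKM at day 0, at 4.40 with and 7.52 without ROS at day 4, and at 2.87 and 7.50 at day 8, a log2 change of -3.26 (SE 0.17, limma adjusted p = 5.49e-05). All later samples lay apart from day 0 for both genes, and the ratio of Slc25a23 to Slc25a24 went from 0.0107 and 0.0118 at day 0 to 4.82 with and 1.85 without ROS at day 8. Slc25a25 peaked at day 4, with 20.4 FPKM with and 16.4 without ROS, from 7.09 and 7.04 at day 0, and was at 13.2 and 11.2 at day 8.

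Of the ADP/ATP carriers, Slc25a5 passed the test and Slc25a4 did not. Slc25a5 was at 224 and 238 FPKM at day 0, at 595 with and 498 without ROS at day 4, and at 778 and 492 at day 8 (log2 change 1.42, SE 0.15, limma adjusted p = 0.000632). Slc25a4 was at 291 and 285 FPKM at day 0 and at 269 with and 237 without ROS at day 8 (log2 change -0.19, SE 0.12, limma adjusted p = 0.219). The more abundant of the pair was therefore Slc25a4 in preadipocytes, where Slc25a5 was 0.771 and 0.838 times its level, and Slc25a5 in adipocytes, at 2.89 times with ROS and 2.08 times without ROS at day 8. How reads were shared bears on these levels. In the mm9 genome 84.3% of the 31-base windows of the Slc25a5 transcript have an exact copy elsewhere, against 1.11% for Slc25a4, while the coding sequences of Slc25a4 and Slc25a5 are 77.5% identical with no identical run over 20 bases, so the level of Slc25a5 is uncertain where the alignment could place its reads on such copies. Slc25a3 also rose, from 241 and 259.8 FPKM to 416 with and 313 without ROS at day 8 (log2 change 0.53, SE 0.13, limma adjusted p = 0.0142).

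**Figure D2:**
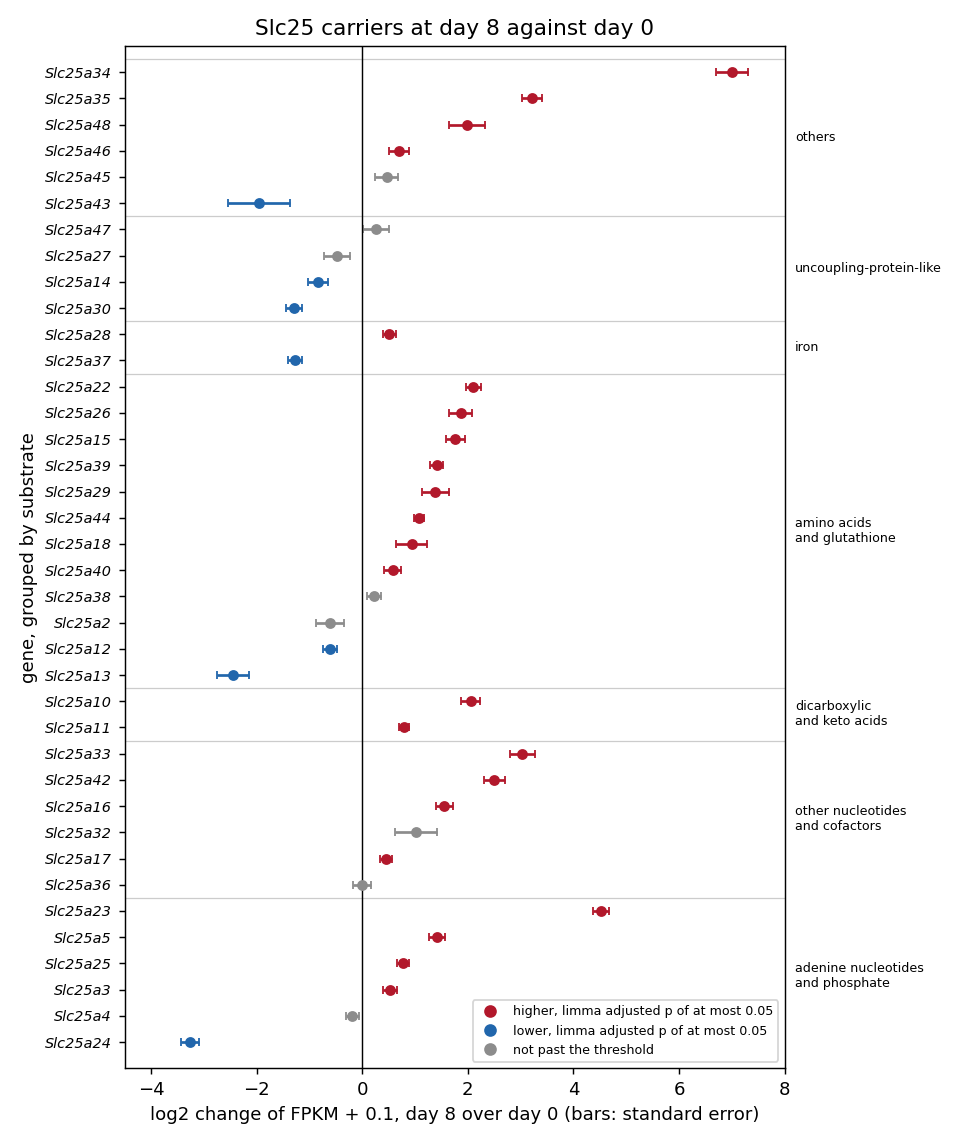
Log2 change of FPKM + 0.1 from day 0 to day 8 for 38 of the members tested in limma, grouped by substrate. Points are the fitted changes, bars are their standard errors, and red and blue mark 23 higher and 7 lower members at an adjusted p of 0.05.

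Of the 7 carriers of other nucleotides and cofactors, 5 were higher at day 8 and none was lower, against 28.1% and 30.6% of all coding genes. Slc25a42, a coenzyme A carrier, rose from 2.92 and 3.13 FPKM to 24.2 with and 12.8 without ROS (log2 change 2.50, SE 0.19), and Slc25a16, a carrier tied to coenzyme A supply, from 4.76 and 4.31 to 15.7 and 11.7. Slc25a33 and Slc25a36 carry pyrimidine nucleotides. Slc25a33 was at 4.68 and 5.04 FPKM at day 0, 19.6 with and 15.5 without ROS at day 4, and 64.1 and 25.6 at day 8 (log2 change 3.03, SE 0.23, limma adjusted p = 0.000187), whereas Slc25a36 was at 8.06 and 8.76 at day 4 and back at 5.12 and 4.90 at day 8, from 5.64 and 4.42 at day 0. Slc25a17, which serves peroxisomes, changed by 0.45 (SE 0.11). Slc25a32, the folate and FAD carrier, did not pass the test (log2 change 1.01, SE 0.40, limma adjusted p = 0.0697).

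The dicarboxylate carrier Slc25a10 and the oxoglutarate/malate carrier Slc25a11 both rose. Slc25a10 was at 18.9 and 21.1 FPKM at day 0, 120.2 with and 95.7 without ROS at day 4, and 72.1 and 95.6 at day 8 (log2 change 2.05, SE 0.19). Slc25a11 went from 56.0 and 56.8 to 111 and 86.3 (log2 change 0.79, SE 0.10). Both are used to move malate across the inner membrane.

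The 12 carriers of amino acids and glutathione held 8 higher and 2 lower members, against 28.1% and 30.6% of all coding genes. The 2 lower ones were the pair of aspartate/glutamate carriers. Slc25a13 (citrin) was at 9.001 and 8.22 FPKM at day 0, 3.10 with and 2.66 without ROS at day 4, and 1.00 and 2.20 at day 8 (log2 change -2.45, SE 0.31, limma adjusted p = 0.00109). Slc25a12 (aralar) went from 18.1 in both D0 samples to 10.3 and 13.7 (log2 change -0.61, SE 0.13, limma adjusted p = 0.00862), so that its level was 2.02 and 2.21 times that of Slc25a13 at day 0 and 10.2 times with and 6.25 times without ROS at day 8. These 2 carriers bring aspartate out and glutamate in as a step of the malate-aspartate shuttle. The glutamate carrier Slc25a22 rose from 6.49 and 6.27 FPKM to 35.3 with and 21.9 without ROS (log2 change 2.11, SE 0.14). Its relative Slc25a18, listed at 0 at day 0, counts among the 8 higher members (log2 change 0.94, SE 0.30, limma adjusted p = 0.0352) on values of only 0.1005 FPKM with and 0.0836 without ROS, and the call was lost with a pseudocount of 1 and without either D0 sample. Further rises were those of Slc25a26, which imports S-adenosylmethionine (1.87, SE 0.22), the ornithine carrier Slc25a15 (1.76, SE 0.18), Slc25a39 (1.41, SE 0.12) and Slc25a44, the carrier of branched-chain amino acids (1.07, SE 0.10). Slc25a40, the less abundant relative of Slc25a39, was also higher (0.58, SE 0.16). Slc25a38, a glycine carrier needed for heme synthesis, did not pass the test (0.22, SE 0.13, limma adjusted p = 0.191).

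The 2 iron carriers, or mitoferrins, went apart. Slc25a37 (mitoferrin 1) fell from 12.8 and 11.9 FPKM to 4.61 with and 5.52 without ROS (log2 change -1.27, SE 0.14, limma adjusted p = 0.000613). Slc25a28 (mitoferrin 2) went from 18.6 and 21.3 to 29.7 and 27.3 (log2 change 0.51, SE 0.12, limma adjusted p = 0.0115), a call that was lost in 8 of the 15 alternative settings. Among the 4 carriers that resemble uncoupling proteins none was higher, and Slc25a30 (-1.29, SE 0.15) and Slc25a14 (-0.84, SE 0.19) were lower. Over all coding genes, 28.1% were higher and 30.6% lower. Slc25a27, at 1.58 and 1.23 FPKM at day 0 and 0.920 with and 1.02 without ROS at day 8, did not pass the test.

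The largest fitted change among the members was that of a carrier whose substrate is not settled. Slc25a34, on chromosome 4 at 141174740 to 141179749 of mm9 on the minus strand, was listed at 0 in both D0 samples, at 7.19 FPKM with and 3.50 without ROS at day 4, and at 27.3 and 5.86 at day 8. The fitted log2 change of 7.00 (SE 0.30, limma adjusted p = 2.75e-05) depends on the pseudocount and was 3.80 with a pseudocount of 1. Its relative Slc25a35 was already present at day 0, at 0.884 and 0.748 FPKM, and reached 7.16 with and 9.94 without ROS (log2 change 3.22, SE 0.19). Slc25a46, a protein of the outer membrane that takes part in mitochondrial shape, was also higher (0.69, SE 0.19).

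**Figure D3:**
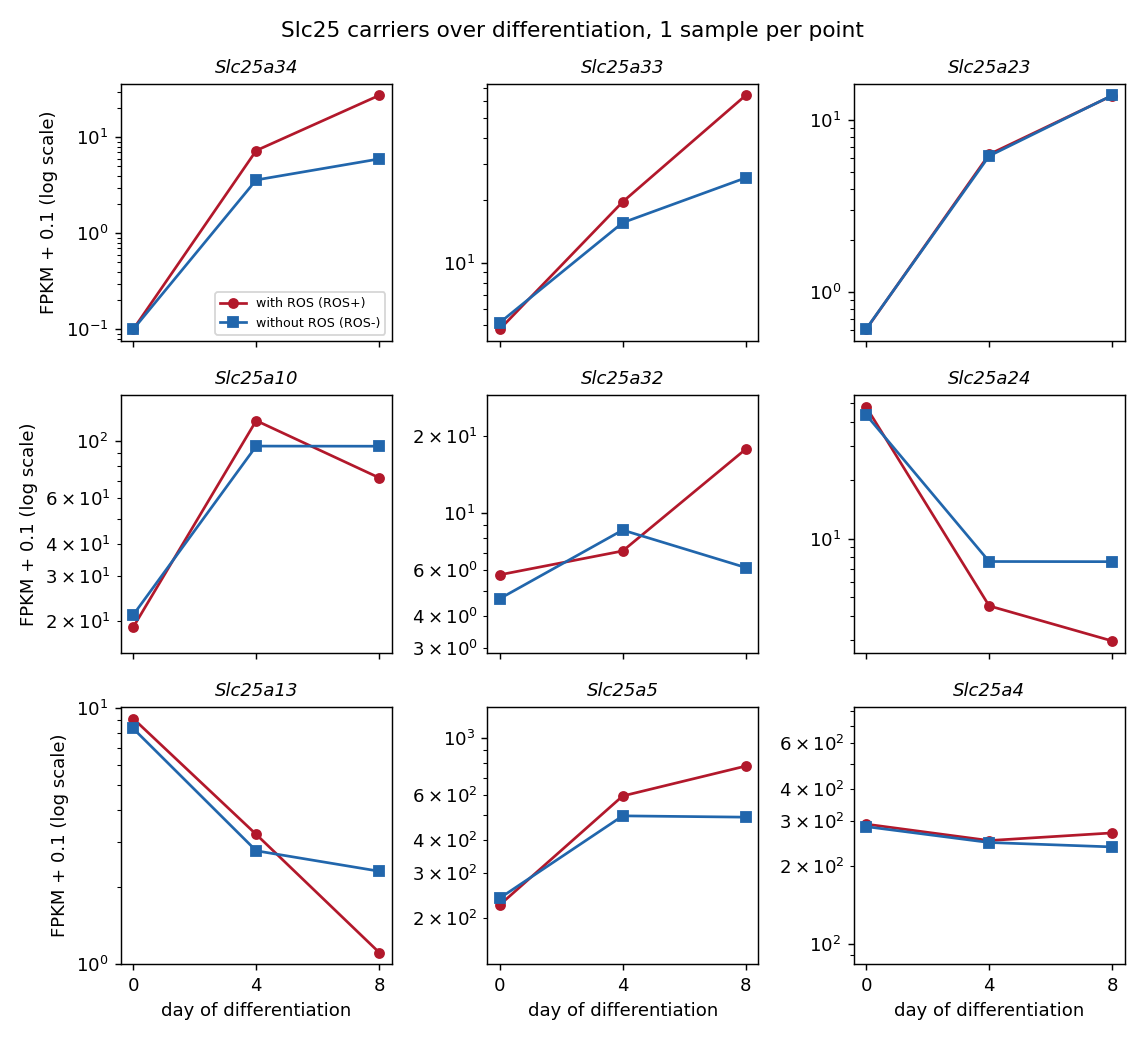
FPKM + 0.1 of 9 members on log axes against the day of differentiation, with 1 sample per point, red circles with ROS and blue squares without. The lines of Slc25a23 overlie each other. Those of Slc25a34 and Slc25a24 are apart at day 4 and day 8, and those of Slc25a33, Slc25a32 and Slc25a13 part most at day 8. Slc25a4 lies between 237 and 291 FPKM throughout.

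Genes outside the family moved alongside. Over all coding genes, 28.1% were higher and 30.6% lower at day 8. Of 17 genes used as a measure of mitochondrial content, such as citrate synthase (Cs) and subunits of the respiratory complexes, 17 were higher at day 8, with a median log2 change of 1.61. Of 21 other mitochondrial transporters, 13 were higher and 5 lower, with a median of 0.73. Within that list the pyruvate carrier subunit Brp44 (Mpc2) rose by 3.37 (SE 0.11), and the calcium uniporter Ccdc109a (Mcu) and the sideroflexin Sfxn3 changed by -0.50 (SE 0.13) and -2.55 (SE 0.18). The part that mitochondrial content had in the changes of the carriers was not tested.

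Between day 4 and day 8, 5 members were higher, among them Slc25a22, Slc25a23, Slc25a33 and Slc25a34, and Slc25a25 and Slc25a36 were lower, which is 12.8% and 5.13% of the members against 5.6% and 4.91% of all coding genes. The log2 changes went from 0.62 for Slc25a22 to 1.32 for Slc25a34, with limma adjusted p-values of 0.0219 for Slc25a23 and 0.0484 for Slc25a34. None of these 7 calls stood when any 1 of the 6 samples was left out, when 0 members passed in either direction.

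The second question was how ROS, which turns these cells to the beige type, alters the carriers. No member passed limma for a ROS effect common to day 4 and day 8, and 0.0% of the 14190 coding genes did. An effect at only 1 of these days is not tested by that fit. At an unadjusted limma p under 0.05 there were 12 members and 3006 coding genes, and the count of members after adjustment was 0 in every alternative fit with a ROS term. With 1 sample for each condition, the values at each day are a description without a test. At day 8, 4 members were at least 2-fold higher with ROS and 4 were at most 0.5 times the sample without ROS, 10.3% each, against 3.4% and 15.2% of 13587 coding genes. At day 4 these counts were 3 and 1 of 38 (7.89% and 2.63%), against 1.4% and 3.88%. Of the 3, only Slc25a34 was above 1 FPKM. Slc25a2 was at 0.262 with and 0.0948 without ROS, and Slc25a43 at 0.159 and 0. The median log2 ratio at day 8 was 0.10 for the members, -0.23 for all coding genes and 0.49 for the 17 genes of mitochondrial content. Scaling the samples by their median ratio shifts every day 8 log2 ratio by 0.19, for members and other genes alike. It gives 6 members at least 2-fold higher and 3 lower, beside 638 and 1647 of the 13587 coding genes. Members above 1 became 27 of 39 (69.2%) in place of 21 (53.85%). The share of all coding genes above 1 became 47.0% in place of 30.3%.

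Slc25a34 had the highest ratio at day 8. With 27.3 FPKM in D8 ROS+ and 5.86 in D8 ROS- its ratio was 4.66, and 121 of the 13587 coding genes had a larger one. At day 4 the ratio was 2.05. In the joint fit its log2 difference was 1.61 (SE 0.30, unadjusted p = 0.00176, limma adjusted p = 0.115). Slc25a33, also on chromosome 4, at 149118145 to 149148376 of mm9, had a ratio of 2.50 at day 8 and 1.26 at day 4. Slc25a32 had a ratio of 2.91 at day 8 and 0.827 at day 4. Its 17.6 FPKM in D8 ROS+ stood alone, since the other 10 samples lay between 4.55 and 8.49, among them the 5 transduced samples, which also carry the ROS label. The remaining one of the 4, the ornithine carrier Slc25a2, was at 0.116 against 0.0338 FPKM.

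Below these, Slc25a42 (1.90), Slc25a26 (1.84), Slc25a22 (1.61) and Slc25a5 (1.58) had the next ratios at day 8. Of the 4 members at most 0.5 times D8 ROS-, Slc25a24 was at 2.87 against 7.50 FPKM (ratio 0.383) and Slc25a13 at 1.00 against 2.20 (ratio 0.457). The other two were low: Slc25a48, a choline carrier, at 0.692 against 2.08 FPKM (ratio 0.333) and Slc25a43 at 0.0177 against 0.124. The next lowest ratios were those of Slc25a29 (0.52), Slc25a45 (0.625, from 3.86 against 6.17 FPKM), Slc25a14 (0.665) and Slc25a15 (0.702). Slc25a24 was also lower with ROS at day 4, at 0.586 times, whereas Slc25a13 was at 1.17 times. Slc25a24 had the smallest unadjusted p for ROS among the members (0.000872, log2 difference -1.06, SE 0.17, limma adjusted p = 0.111). With a pseudocount of 1, only 1 member was 2-fold lower. Slc25a23 differed little between the conditions, with ratios of 1.02 and 0.997.

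**Figure D4:**
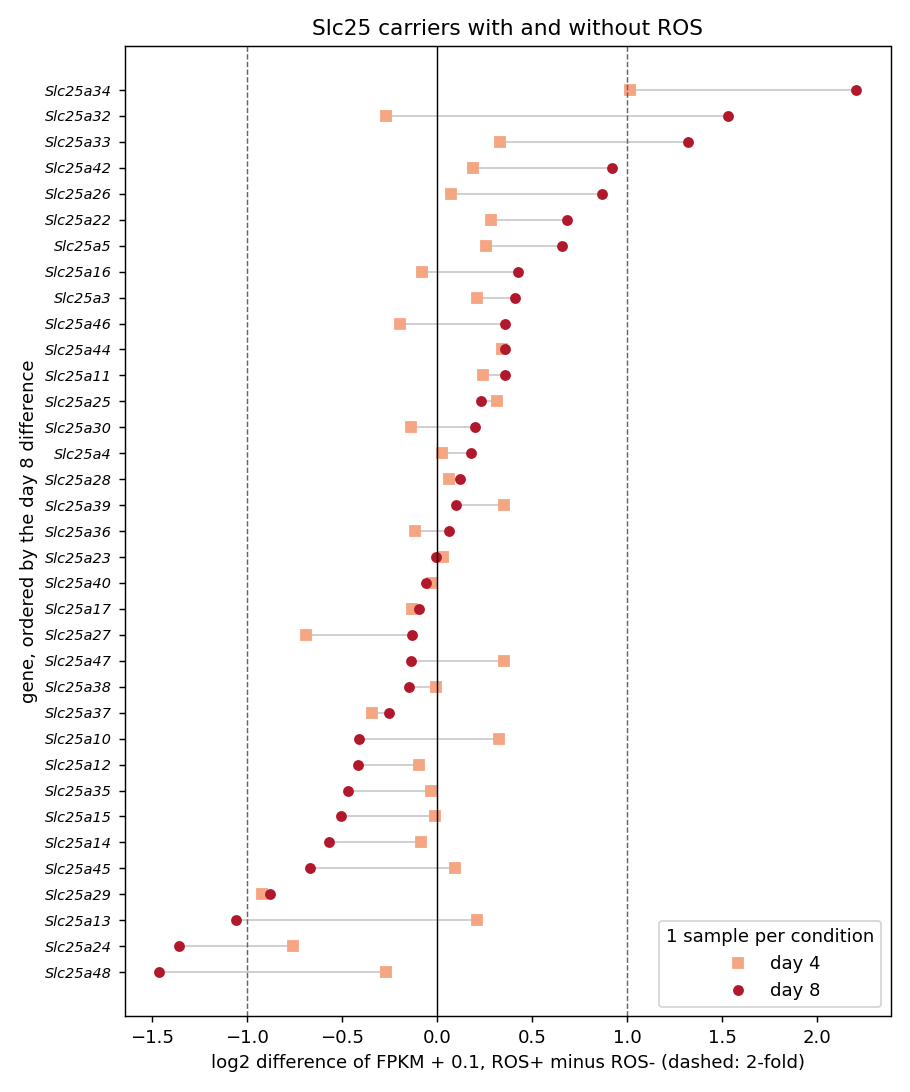
Log2 difference of FPKM + 0.1 between the ROS+ and the ROS- sample at day 4 (squares) and day 8 (circles) for 35 of the members at 1 FPKM or more in one of these 4 samples, ordered by day 8, with 1 sample per condition and dashed lines at 2-fold. Slc25a34 is at or past 2-fold at both days, and Slc25a32 is past it at day 8 only.

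Markers of cell state moved with these ratios. The summed FPKM of 5 beige markers was 229.7 in D8 ROS+ and 50.0 in D8 ROS-, with Ucp1 at 9.89 and 0.0970. That of 7 preadipocyte markers was 151 and 497, with Dlk1 at 0.131 and 0.374. Most of it came from Col1a1 (47.05 and 170.3) and Col3a1 (72.3 and 250.5). All 7 were lower with ROS at day 8. From day 0 to day 8, 6 of them were lower and Pdgfra was higher (log2 change 1.10, SE 0.12). The part of these markers in the differences of the carriers was not tested. Slc25a24, which was high at day 0 and was higher without ROS, and Slc25a34, which was listed at 0 at day 0 and was higher with ROS, both run alongside these marker sums. Other members did not. Slc25a35 and Slc25a48 rose from day 0 but had day 8 ratios of 0.720 and 0.333, and Slc25a23 rose with a ratio of 0.997.

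The promoter stretches of members 2-fold apart at day 8 with more than 1 FPKM in either sample are shown because ROS acts on a receptor that binds repeats of AGGTCA. RefSeq promoters (GRCm38.p6) were at hand for 32 of the 42 members and 27025 gene symbols in all. The table holds Slc25a34, Slc25a33, Slc25a24, Slc25a13 and Slc25a48 of these, but not Slc25a32. The 250 bases before the start are given 5′ to 3′ on the gene's strand, and each stretch with its start matched mm9 at 1 place, at the transcript start of the files. Capitals mark a match to AGGTCA or to the E-box CACGTG, the site of many helix-loop-helix factors, on either strand.
Slc25a34 (chr4:141623835-141624084, minus strand): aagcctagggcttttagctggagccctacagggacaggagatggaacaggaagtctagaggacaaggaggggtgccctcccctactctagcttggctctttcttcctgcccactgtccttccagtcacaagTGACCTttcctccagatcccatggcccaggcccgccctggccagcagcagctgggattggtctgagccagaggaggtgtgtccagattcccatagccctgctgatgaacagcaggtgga
Slc25a33 (chr4:149774268-149774517, minus strand): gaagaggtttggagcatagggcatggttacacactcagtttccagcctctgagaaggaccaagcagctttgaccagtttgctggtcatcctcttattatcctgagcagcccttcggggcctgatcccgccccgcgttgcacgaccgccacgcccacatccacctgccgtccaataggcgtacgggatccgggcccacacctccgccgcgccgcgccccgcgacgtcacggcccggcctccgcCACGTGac
Slc25a24 (chr3:109122899-109123148, plus strand): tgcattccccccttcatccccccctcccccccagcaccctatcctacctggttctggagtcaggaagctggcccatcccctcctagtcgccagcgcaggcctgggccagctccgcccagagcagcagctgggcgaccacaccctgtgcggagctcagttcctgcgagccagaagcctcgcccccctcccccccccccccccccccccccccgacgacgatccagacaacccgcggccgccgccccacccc
Slc25a13 (chr6:6217174-6217423, minus strand): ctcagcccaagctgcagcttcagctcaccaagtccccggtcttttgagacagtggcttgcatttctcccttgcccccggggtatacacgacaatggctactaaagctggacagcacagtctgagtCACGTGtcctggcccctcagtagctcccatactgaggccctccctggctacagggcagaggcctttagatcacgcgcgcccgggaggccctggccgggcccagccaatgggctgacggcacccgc
Slc25a48 (chr13:56438105-56438354, plus strand): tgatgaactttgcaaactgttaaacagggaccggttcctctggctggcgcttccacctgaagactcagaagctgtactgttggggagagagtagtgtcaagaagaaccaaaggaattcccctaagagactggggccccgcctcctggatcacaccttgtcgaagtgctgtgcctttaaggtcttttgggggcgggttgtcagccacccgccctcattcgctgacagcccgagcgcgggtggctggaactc
Slc25a34 holds 1 AGGTCA, on the reverse strand, at -119 to -114 from the start. AGGTCA occurs in this window in 4 of the 32 members (Slc25a34, Slc25a39, Slc25a45 and Slc25a47) and in 15.76% of all symbols. The repeat that the receptor is known for, AGGTCANAGGTCA, occurs in 0 of the 32 and in 0.04% of all. CACGTG lies at -8 to -3 in Slc25a33 and at -125 to -120 in Slc25a13, and occurs in 6 of the 32 and in 6.86% of all. The cAMP response element TGACGTCA, searched in the same way, occurs in 2 of the 32 (Slc25a25 and Slc25a36) and in 1.77% of all. CACGTG is thus present both in a member with a ratio above 1 and in one with a ratio below 1, and Slc25a24 and Slc25a48 hold none of these motifs. A match is a description of the letters and says nothing of binding.

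The third question was whether the carriers follow JMJD1A and its mutants in the transduced samples. The WT samples set the scale. Of 39 members with a ratio, 28 (71.8%) were lower in WT B than in WT A, against 46.8% of 13796 coding genes. Of the members, 6 were at most 0.5 times WT A and 3 at least 2 times, 15.4% and 7.69%, against 10.6% and 15.1% of the coding genes. Slc25a5 was at 691 FPKM in WT A and 268 in WT B, Slc25a3 at 500.5 and 237, and Slc25a34 at 38.2 and 18.5. In the other direction Slc25a24 was at 1.42 and 10.5 FPKM, a ratio of 7.38, and Slc25a37 at 3.01 and 10.5. The summed FPKM of the family was 2433 in WT A and 1471 in WT B, that of the mitochondrial content genes 9162 and 4892, and that of the beige markers 202 and 25.6. The labels give WT A and WT B as replicates, and what made them differ was not tested.

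In S265A, 23 of 39 members lay between WT A and WT B, in S265D 26 of 40, and in S265D-H1120Y 16 of 40. Of all coding genes, 53.8%, 56.4% and 41.6% did so, near the shares of the members, so these counts are no result about the carriers. In limma on the 5 transduced samples, with 1 residual degree of freedom from the WT pair, 0 members and 0 of 14199 coding genes differed for S265A, for S265D or between S265D-H1120Y and S265D. At an unadjusted limma p under 0.05 there were 0, 0 and 1 members, beside 45, 42 and 130 of all coding genes, so these counts say nothing about the carriers. A miss in this test does not show that the samples were alike.

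Relative to the WT mean, S265A had 1 member at least 2-fold higher and 2 at most 0.5 times. That is 2.56% and 5.13% of 39 members, against 3.09% and 6.65% of coding genes, so these counts are no result about the carriers. All 3 members were low. Slc25a2 was at 0.681 FPKM against 0.338 and 0.240 in WT A and WT B. Slc25a18 was at 0.0137 against 0.178 and 0.139, and Slc25a21 at 0 against 0.103 and 0.0208. Of members above 1 FPKM, Slc25a45 was at 1.74 in S265A, below 2.62 and 2.72 in WT A and WT B. Slc25a36 was at 9.28, below 13.8 and 14.0. The abundant Slc25a5 was at 327 FPKM in S265A, 0.683 times the WT mean but between the WT samples. In S265D 1 of 40 members was 2-fold higher (2.5%), Slc25a2 at 0.771 FPKM, and 0 were at most 0.5 times, against 3.53% and 4.88% of coding genes. With WT A alone as the reference, 4 members were at least 2 times WT in S265D, and the share of all coding genes was not counted. They were Slc25a2, Slc25a24, Slc25a27 and Slc25a37. In S265D, Slc25a24, Slc25a27 and Slc25a37 were at 0.622, 0.665 and 0.796 times WT B. These 3 were also at least 2-fold higher in WT B than in WT A. The median log2 ratio of S265A over WT was -0.093, and with 1 WT sample as the reference it became -0.22 (WT A) and 0.16 (WT B), so its direction depended on the WT sample.

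S265D-H1120Y was compared with S265D, the same phosphorylation mimic with its demethylase site intact. Of 39 members, 1 was at least 2-fold higher (Slc25a29, a carrier of basic amino acids, 0.770 against 0.326 FPKM) and 3 were at most 0.5 times. That is 2.56% and 7.69%, against 5.11% and 7.89% of coding genes. The lower share is near that of all genes, so these counts are no result about the carriers. Slc25a23 was the 1 of the 3 above 1 FPKM, at 4.17 in S265D-H1120Y against 8.98 in S265D, 7.06 in S265A and 9.31 and 8.68 in WT A and WT B, so it lay below the other 4. Slc25a48 was at 0.0291 against 0.536 FPKM and Slc25a18 at 0 against 0.147. Slc25a10 was lowest in S265D-H1120Y too, at 47.9 FPKM against 79.6 in S265D, 129.6 in S265A and 113 and 96.9 in WT. Slc25a37 was highest there, at 14.9 against 8.37 in S265D. With 1 sample each, these differences have no replicate check.

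**Figure D5:**
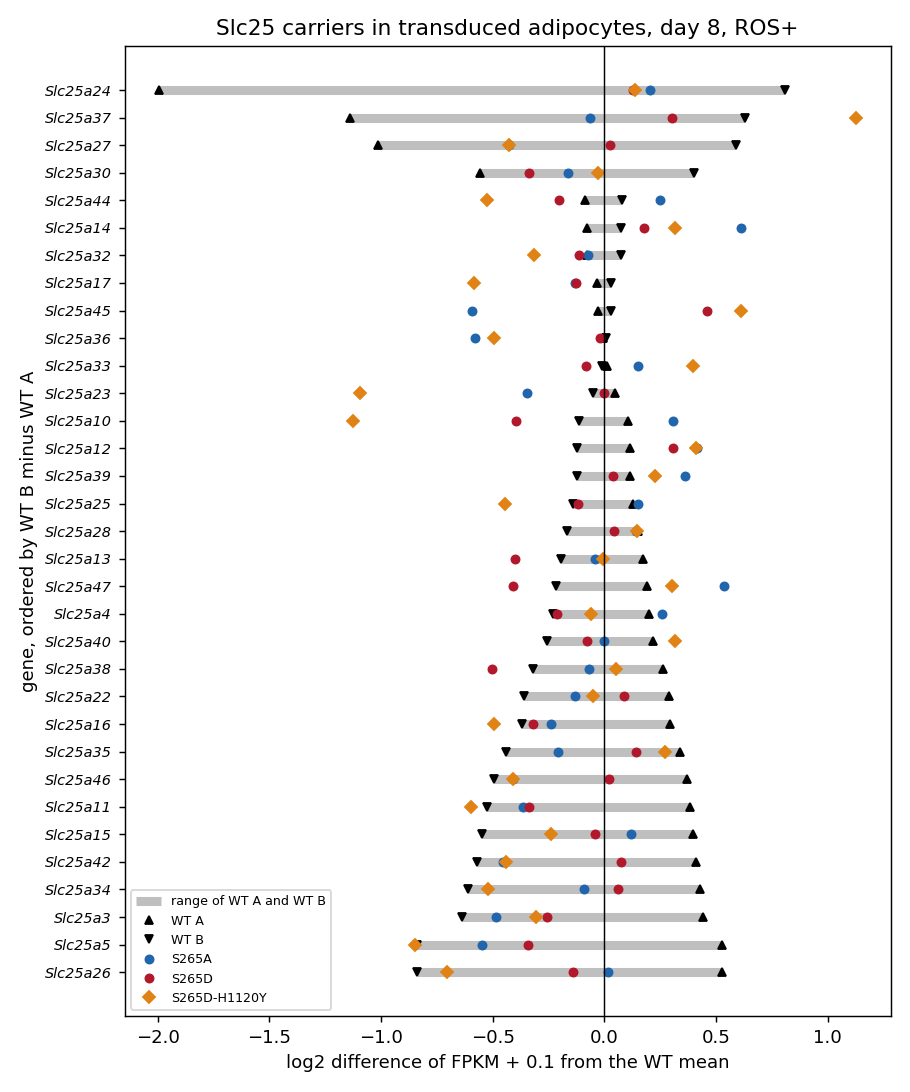
Log2 difference of FPKM + 0.1 from the WT mean for 33 of the members at 1 FPKM or more in a transduced sample, ordered by WT B minus WT A. Grey bars span WT A and WT B, and symbols mark the samples. The bars of Slc25a24, Slc25a37 and Slc25a27 are the longest toward WT B, and Slc25a23 and Slc25a10 of S265D-H1120Y lie outside them to the left.

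Some members lie next to each other in mm9 and still had separate courses. Slc25a43 and Slc25a5 are 18.4 kb apart on the X chromosome and on the same strand, and Slc25a43 went from 0.748 and 0.367 FPKM at day 0 to 0.0177 and 0.124 at day 8 (log2 change -1.95, SE 0.59, limma adjusted p = 0.0301), while Slc25a5 rose. The call for Slc25a43 was lost without any 1 of the 6 samples. Slc25a41 and Slc25a23 are 2.06 kb apart on chromosome 17, where Slc25a41 did not exceed 0.0442 FPKM in any sample. Slc25a29 and Slc25a47 are 15.2 kb apart on chromosome 12, and Slc25a47, a carrier known from liver, stayed between 0.481 and 1.02 FPKM.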

How the data were processed

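RNA was taken from im-scWAT cells in 11 samples, with TruSeq libraries on an Illumina sequencer. The authors aligned reads with the Burrows-Wheeler aligner to UCSC transcripts and the mouse genome mm9, and deposited strand-specific FPKM values per transcript. The deposited files also hold the mapped bases of each transcript, a coverage from which depth was read, and the authors' log2 and log10 forms of the values, which were not used. Here the sense FPKM of the transcript marked as representative was taken for each coding symbol. Values went to limma 3.58.1 (R 4.3.3) as log2(FPKM + 0.1), with a mean-variance trend and a minimum of 0.1 FPKM in at least 1 sample fitted; such changes understate those of low genes. The time course fit had 2 and the transduced fit 1 residual degrees of freedom. Those of the time course come from the D0 samples and from the difference between the ROS effects at day 4 and day 8. A ROS effect that differs between these days therefore widens the standard errors. The limma step was run on simulated data with the same spread for every gene and no ROS effect. That run checks the code only, not the fit under the spread of these samples. Ratios of single samples needed at least 0.1 FPKM in one of them. Tables and plots were made with Python 3.11.15, pandas 2.3.3, numpy 2.4.6 and matplotlib 3.10.9. Alternatives were another pseudocount, minimum, scaling, transcript choice or model and leaving out each sample. Members named with values were those past the threshold for ROS, the 8 largest and 8 smallest day 8 ratios for ROS, the 6 largest and 6 smallest changes at day 8, the 6 most abundant, the 5 lowest ratios for S265A and the 5 highest for S265D, and pairs or sets of related carriers. Slc25a16, Slc25a17, Slc25a38, Slc25a44, Slc25a46 and Slc25a47, with Brp44, Ccdc109a and Sfxn3, were named after their values were seen. The members and lists were chosen with earlier results of these data known. At the depth of these files, 100 bases on a transcript of 2 kb give an FPKM of 0.00944 to 0.0161, so values under 0.1 rest on few reads. A further member that the rule takes is not reported here and stays in the counts.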

Additional observations from a re-analysis of the deposited data

Results flagged for a closer look

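Slc25a10 had opposite ratios of ROS+ over ROS- at the 2 days. At day 4 it was at 120.2 FPKM with and 95.7 without ROS, a ratio of 1.26, and at day 8 it was at 72.1 and 95.6, a ratio of 0.753. With 1 sample per condition the difference between the days was not tested.

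The antisense strand of Slc25a5 carried reads, although no comparison above uses that strand. Its highest value was 1.73 FPKM, in WT A, where the sense strand was at 691 FPKM. Over the 11 samples the antisense value was between 0.163% and 0.334% of the sense value. Whether these are antisense transcripts or sense reads counted on the wrong strand was not tested.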

How the results depend on the processing

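No change of a named member past the limma threshold and no ratio at 2-fold or more changed sign under the alternatives tried. Smaller ones did: of the named members, 20 of 32 ratios of S265A over WT and 23 of 34 of S265D over WT took the other sign without WT A or WT B, as did 11 of 33 ROS differences in the joint fit, none past its threshold, under some setting. Counts near the thresholds also moved. The 7 members lower at day 8 than day 0 became 4 to 7 when 1 sample was left out, and the 24 higher became 16 to 21. The 7 lower at day 4 became 4 without a minimum FPKM, 2 in a fit on all 11 samples, and 2 to 6 when 1 sample was left out (2 without either D0 sample, 4 without D4 ROS-). From day 4 to day 8, the 5 higher members became 1 without the variance trend and 0 without a minimum, with a ROS term also at day 0, with day alone, in the fit on all 11 samples and when any 1 sample was left out, and the 2 lower ones became 1 with a pseudocount of 1 or the transcript of highest mean and 0 under those same other settings. With a pseudocount of 1 the 4 members lower with ROS at day 8 became 1, the 2 lower in S265A, the 1 higher in S265D and the 3 lower in S265D-H1120Y each became 0. With a minimum of 1 FPKM those last counts were 0, 0 and 1, and without a minimum the count for S265D-H1120Y was 5. Leaving out WT B or WT A gave 4 and 1 members at least 2 times WT in S265D and 2 to 3 at most 0.5 times in S265A. No analysis paired by replicate was possible because only WT has labelled replicates, so no replicate numbers pair the groups. The fit with a ROS term also at day 0, which sets the ROS+ against the ROS- series over all 3 days, gave 22 higher and 7 lower members at day 8. The ratios of single samples and the low members carry the least certainty.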
